A study of Caenorhabditis elegans with 17 samples.

Results

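The transthyretin-like genes, named ttr, are a large family of Caenorhabditis elegans genes whose short secreted proteins resemble the vertebrate hormone carrier transthyretin. They were followed here in whole day 1 adults, 96 h old and kept at 20 °C. Members were chosen by name, as every gene whose public name is ttr followed by a number, and by level, as those with an FPKM (fragments per kilobase of transcript, scaled to the mapped fragments of the library) of at least 1 in at least 4 of 17 libraries. This gave 49 members of 57 ttr genes in a table of 26786 genes. The libraries come from animals fed Escherichia coli HT115 (DE3) that make double-stranded RNA, with the clones ash-2 + hsf-1 (n = 4), ash-2 (n = 4), hsf-1 (n = 4) or the empty vector L4440 (n = 5). Such feeding, called RNAi, lowers the matching worm transcript. All groups, L4440 included, carried rmIs133 [unc-54p::Q40::YFP], a transgene in which a muscle myosin promoter drives a polyglutamine stretch fused to a yellow fluorescent protein. For the ash-2 + hsf-1 and ash-2 groups, the parents too were raised on ash-2 RNAi bacteria, so a contrast with either of the other groups includes the treatment of the parents. Each library is called a separate biological replicate in the labels, and RNA came from pellets of whole worms, in which fewer cells of a type and less RNA per cell cannot be told apart.

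Transthyretin-like proteins form one of the largest protein families of nematodes, and most carry a signal peptide for secretion. For most of the family no role is known. TTR-52 is an exception: it is secreted and binds phosphatidylserine, the lipid that dying cells expose, and bridges it to the engulfment receptor CED-1 on the cell that takes up the corpse. TTR-33 is known for protecting dopaminergic neurons of the worm against oxidative stress. ASH-2 belongs to the enzyme complexes that place methyl groups on histone H3 at lysine 4, a mark of active promoters. HSF-1 is the transcription factor of the heat shock response and also has roles in development.

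The members resembled each other in build. They encoded a median of 143 codons, and the shortest had 130. The longest, ttr-14, stood apart with 406 codons in 9 exons, against a median of 3 exons. Of the 57 ttr genes, the annotation columns of the deposited table placed 56 at the cell surface and 53 in the extracellular region, and gave no term to ttr-42. A term for defense response to Gram-negative bacterium stood at ttr-21, one for apoptotic cell recognition at ttr-52 and a membrane term at ttr-59. The members lay on chromosomes II (2 genes), III (9), IV (9), V (17) and X (12). Of the 57 genes, 29 lay in 12 clusters, in which ttr genes were next to each other or had at most 2 protein-coding genes between them. Of the clusters, 7 held 2 ttr genes and 5 held 3.

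Group means of the members ran between 0.0908 and 877 FPKM. The median of the members' mean FPKM was 17.2 in ash-2 + hsf-1 libraries, 8.70 in ash-2 libraries, 24.7 in hsf-1 libraries and 20.4 in L4440 libraries. The 5 members with the highest mean over all libraries were ttr-16, ttr-15, ttr-2, ttr-18 and ttr-51. The 5 highest members of each group held 65.7%, 67.1%, 59.5% and 59.8% of the family's summed FPKM, with groups in the same order. These were the same genes in ash-2 + hsf-1 and hsf-1 libraries. In place of ttr-51 stood ttr-50 in ash-2 libraries and ttr-46 in L4440 libraries. At the other end were ttr-52, ttr-12 and ttr-3, which reached an FPKM of 1 in 7, 7 and 5 libraries and so passed the level filter narrowly. Just outside it was ttr-22, with 3 libraries, all of them hsf-1 libraries, and a highest FPKM of 1.72. The other genes below the filter were ttr-9 and ttr-56, with 1 library each, and ttr-11, ttr-13, ttr-55, ttr-57 and ttr-58, with 0. A gene that passed only through the groups in which it is high, as ttr-52 and ttr-12 did, had to differ there. Counts over the members are therefore given as descriptions.

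**Figure D1:**
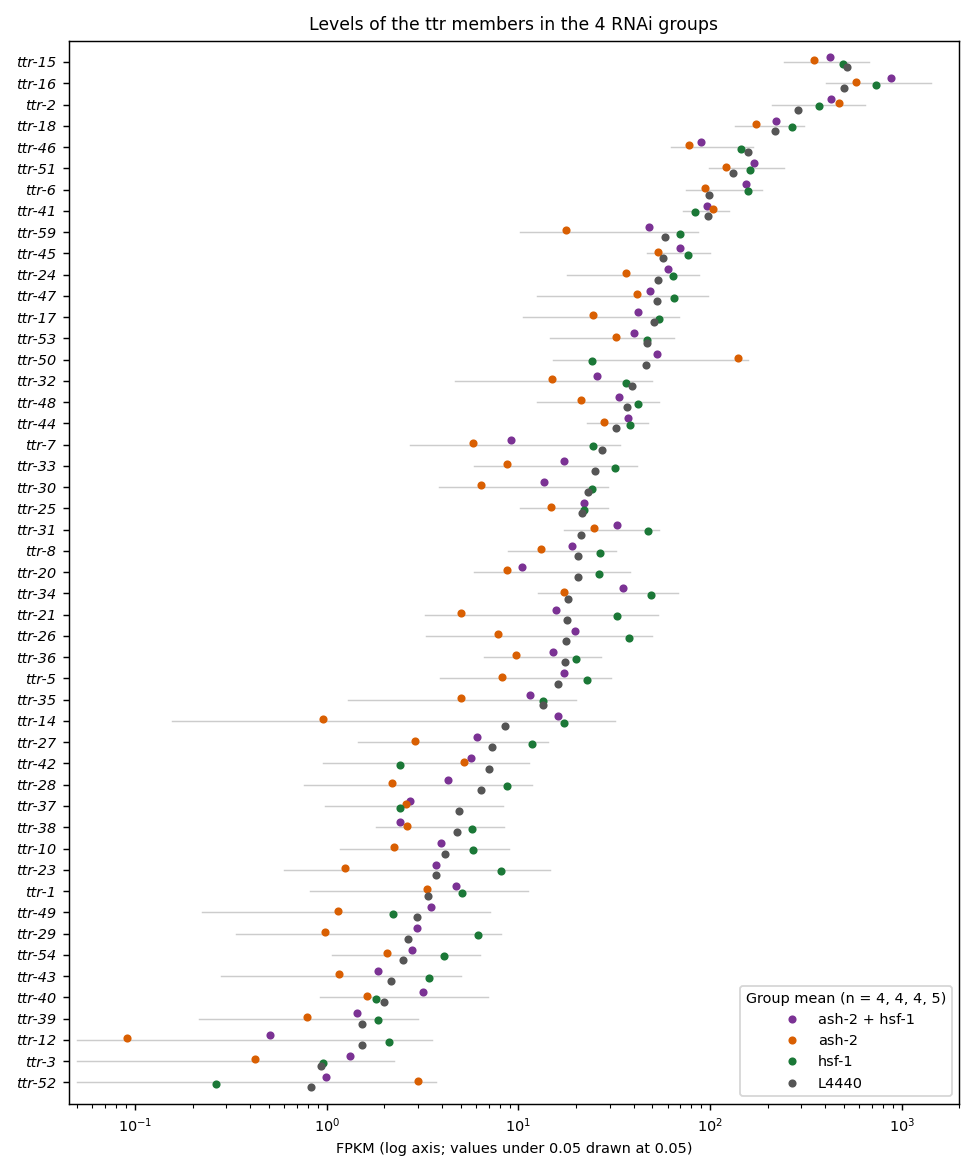
Mean FPKM of each of the 49 members in the 4 RNAi groups, on a log axis, with genes in the order of their L4440 mean and a grey line from the lowest to the highest of the 17 libraries. The members run from ttr-15 and ttr-16 at the top down to ttr-52, ttr-3 and ttr-12 near 1 FPKM, and the ash-2 point lies at the left end for many genes in the middle of the range.

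None of the 5 members with the highest mean over all libraries was called in any contrast. ttr-16, on chromosome IV at 11063530 to 11064137 (WBcel235, minus strand), had 646, 614, 819 and 1428 FPKM in ash-2 + hsf-1 libraries, 825, 406, 666 and 405 in ash-2 libraries, 645, 718, 617 and 955 in hsf-1 libraries and 497, 465, 539, 509 and 500.3 in L4440 libraries. Its L4440 libraries were close together and its ash-2 + hsf-1 libraries were all above them, but no contrast passed the test, and the largest, ash-2 + hsf-1 against L4440, gave a log2 change of 0.72 ± 0.24 (SE; limma, adjusted p = 0.0843). ttr-15, on chromosome III, had 541, 604, 303 and 243 FPKM in ash-2 + hsf-1 libraries, 359, 382, 340.5 and 319.6 in ash-2 libraries, 672, 572, 437 and 292 in hsf-1 libraries and 639, 555, 498, 556 and 334 in L4440 libraries, and the ranges of all groups overlapped. ttr-2, on the same chromosome, had 474, 489.7, 282 and 471 FPKM in ash-2 + hsf-1 libraries, 639.9, 394, 532 and 318 in ash-2 libraries, 444, 393, 210.1 and 439 in hsf-1 libraries and 312, 262, 289, 275 and 302 in L4440 libraries. Each ash-2 library exceeded each L4440 library, with a log2 change of 0.66 ± 0.24 (SE; limma, adjusted p = 0.0599), which missed the threshold of 0.05. ttr-18, on chromosome II, had 175, 200.4, 194 and 310.5 FPKM in ash-2 + hsf-1 libraries, 204, 152, 200.1 and 135 in ash-2 libraries, 276, 277, 234.6 and 279.6 in hsf-1 libraries and 227, 204, 242, 219 and 196 in L4440 libraries. ttr-51, on chromosome IV, had 198, 244, 138 and 98.3 FPKM in ash-2 + hsf-1 libraries, 105, 143, 118.6 and 118 in ash-2 libraries, 192, 204, 147 and 100.2 in hsf-1 libraries and 156, 133, 109, 141 and 121.9 in L4440 libraries. For ttr-18 and ttr-51 every pair of groups compared overlapped. Changes here and below are differences of the mean log2(FPKM + 0.5) between groups, from limma fitted to 13084 genes and all 17 libraries, given ± SE and with p adjusted by the Benjamini-Hochberg method over all genes of a contrast. A gene was called, and is said to have risen or fallen, at an adjusted p under 0.05.

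The targets of the feeding clones were lower in their own groups. The ash-2 transcript averaged 8.47 ± 3.42 FPKM in ash-2 + hsf-1 libraries (SD, n = 4), 5.46 ± 3.64 FPKM in ash-2 libraries (SD, n = 4) and 16.4 ± 1.89 FPKM in L4440 libraries (SD, n = 5). The hsf-1 transcript averaged 9.74 ± 2.60 FPKM in ash-2 + hsf-1 libraries, 12.5 ± 3.55 FPKM in hsf-1 libraries and 29.9 ± 2.92 FPKM in L4440 libraries (SD, same n). In each of these 4 comparisons the groups did not overlap (exact two-sided permutation test, p = 0.0159 each and 0.0159 after adjustment over 4 tests, the smallest that these group sizes allow). In the limma fit, ash-2 in the ash-2 + hsf-1 libraries had a log2 change of -1.01 with an adjusted p of 0.203. Depth was estimated from the smallest steps of FPKM, sought within a window set beforehand, at 16.3 to 19.6 M fragments per library. At that depth an FPKM of 1 in a transcript of median length rests on about 9.39 to 11.3 fragments. In 4 libraries fewer genes reached an FPKM of 1, namely ash-2 replicates 1 (9401 genes) and 3 (9817), ash-2 + hsf-1 replicate 3 (10591) and hsf-1 replicate 4 (10745), against 11170 to 13066 genes in the other 13. These 4 are called sparse below, and results are given with and without them where they differ.

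With ash-2 RNAi the family was mostly lower. Of the 49 members, 13 fell and 2 rose against L4440, or 30.6%, beside 19.6% of all genes called in that contrast (4.17% of all genes higher and 15.5% lower). The estimate was below 0 for 43 members, and the median log2 change was -0.72, while the median of all genes tested was -0.32. Ranges of ash-2 and L4440 libraries did not overlap for 17 lower and 3 higher members, beside 27.3% of all genes (18.4% lower and 8.84% higher). The whole-table median moved to -0.03 when libraries were scaled by median-of-ratios factors and to 0.06 under quantile normalization, and the ttr median then lay at -0.49 and -0.39. The distance of the ttr median below the all-gene median was -0.40, -0.46 and -0.45 in these 3 scalings. Leaving out hsf-1 replicate 4, which only shares in the estimate of spread, gave 23 calls, and 24.5% of all genes were then called. With the number of detected genes as a covariate the order turned round, with 11 members called (22.4%) beside 28.4% of all genes, and the ttr median was -0.06, beside 0.26 for all genes.

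**Figure D2:**
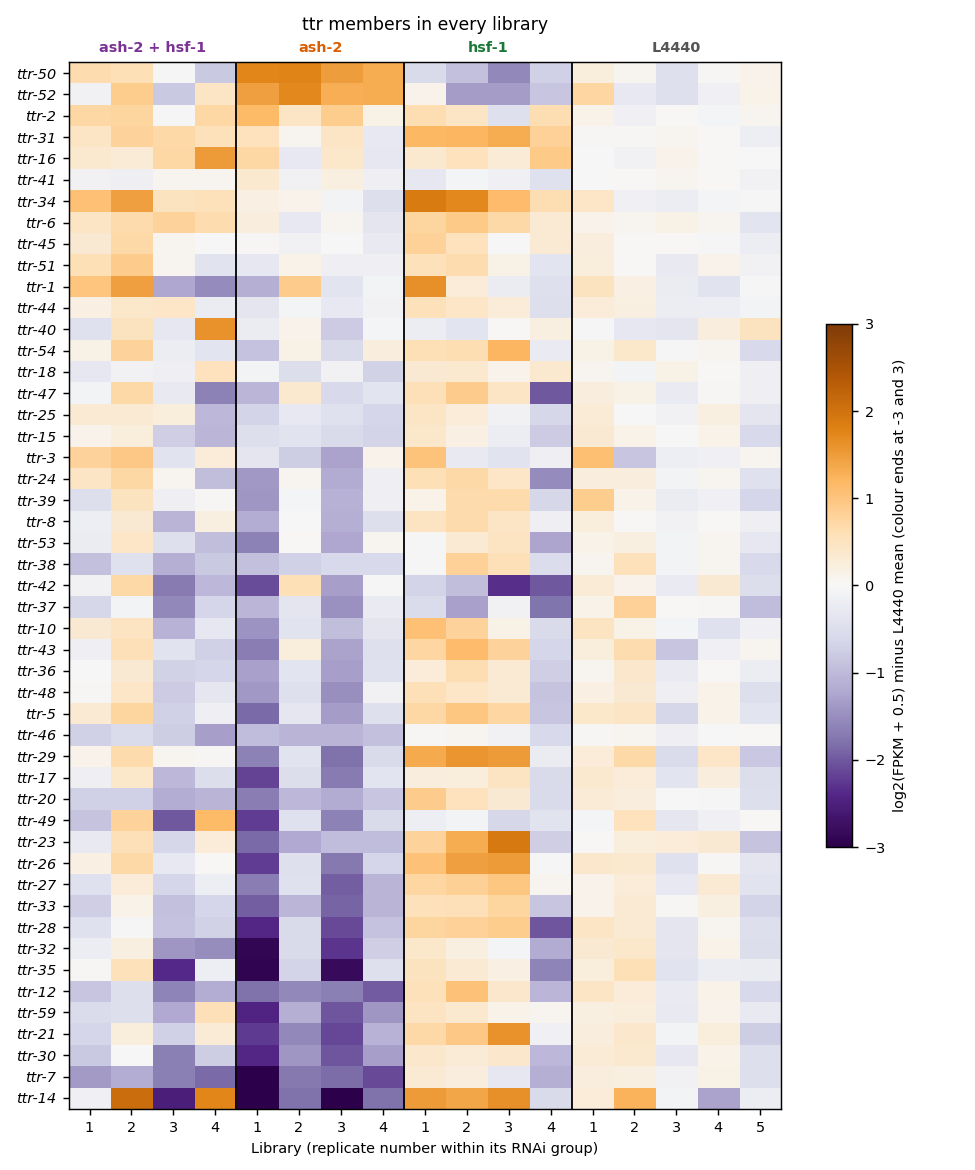
Difference of log2(FPKM + 0.5) from the mean of the 5 L4440 libraries, for the 49 members (rows, in the order of their change with ash-2 RNAi) in each of 17 libraries (columns, by group and replicate). The 4 ash-2 columns are orange for ttr-50 and ttr-52 at the top and purple towards the bottom, more deeply in replicates 1 and 3 than in replicates 2 and 4.

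The 4 ash-2 libraries did not move evenly. Relative to the L4440 mean, the median of the members was -1.39 in replicate 1, -0.39 in replicate 2, -1.19 in replicate 3 and -0.45 in replicate 4. The median of all tested genes in the same libraries was -0.79, 0.07, -0.53 and 0.07, so both sets were lower in replicates 1 and 3. Of the members, 30 (61.2%) were lower in both of these replicates than in both others, as were 65.0% of all tested genes. In the opposite direction were 7 members (14.3%), namely ttr-18, ttr-41, ttr-31, ttr-45, ttr-2, ttr-6 and ttr-16, beside 13.2% of all genes. Without the 4 sparse libraries, 12 members were called, beside 15.5% of all genes, and 11 of them were among the 15. The calls of ttr-32, ttr-27, ttr-26 and ttr-17 were lost and that of ttr-18 was gained. The ttr median was then -0.38, and that of all genes 0.07.

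**Figure D3:**
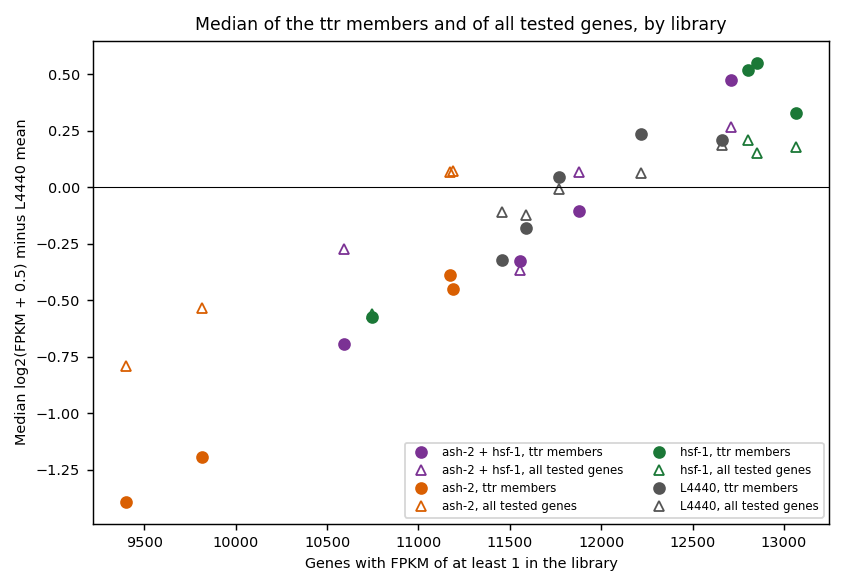
Median over the 49 members (filled circles) and over all 13084 tested genes (open triangles) of the log2 difference from the L4440 mean, against the number of genes at an FPKM of at least 1, for each library. The circles of the 4 libraries with the fewest detected genes are the lowest, and the circle of each of the 4 ash-2 libraries lies below its triangle. The triangles do not follow the number of detected genes throughout. For ash-2 + hsf-1, replicate 4 (11556 genes) is at -0.37 and replicate 3 (10591 genes) at -0.27.

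Marker transcripts of other tissues also differed between these groups. All 6 sperm markers were lower with ash-2 RNAi, and their summed FPKM was 107 to 245 in ash-2 + hsf-1 libraries, 18.6 to 56.9 in ash-2 libraries, 319 to 570.1 in hsf-1 libraries and 221 to 236 in L4440 libraries. Among 5 markers of larval molting, 3 rose and 1 fell with ash-2 RNAi, and the summed FPKM was 79.7 to 120.2 in ash-2 libraries and 49.8 to 69.6 in L4440 libraries. None of the defining markers of either list was at 0. Whether these differences in tissue or stage take part in the changes of ttr genes was not tested.

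Both members that rose with ash-2 RNAi were lower again in the double RNAi. ttr-50, on chromosome IV at 11640047 to 11641015 (minus strand, 213 codons), has no role named in the table. It had 72.02, 69.9, 44.5 and 25.7 FPKM in ash-2 + hsf-1 libraries, 155, 158, 129.7 and 116 in ash-2 libraries, 30.4, 23.9, 15.1 and 27.8 in hsf-1 libraries and 54.4, 48.2, 33.2, 46.8 and 49.5 in L4440 libraries. All ash-2 libraries were above all others, the hsf-1 libraries were all below the L4440 libraries, and the ash-2 + hsf-1 libraries overlapped with the L4440 libraries. With ash-2 RNAi ttr-50 rose with a log2 change of 1.59 ± 0.27 (SE; limma, adjusted p = 0.000408), and with hsf-1 RNAi it fell with a log2 change of -0.95 ± 0.27 (SE; limma, adjusted p = 0.0337). No other member was called in both single RNAi groups. The double RNAi was lower than ash-2 alone, with a log2 change of -1.49 ± 0.29 (SE; limma, adjusted p = 0.0017) and higher than hsf-1 alone, with one of 1.04 ± 0.29 (SE; limma, adjusted p = 0.0282). Against L4440 it gave 0.10 ± 0.27 (SE; limma, adjusted p = 0.990). The ash-2 change and its reduction in the double RNAi were called in all 29 alternative fits. The hsf-1 call was lost without hsf-1 replicate 2 or 3 or L4440 replicate 1, 2, 4 or 5 (log2 change -1.07 to -0.74 over the 17 fits, limma, adjusted p up to 0.145), with no filter on low values and under median-of-ratios scaling. The call against hsf-1 alone was lost without ash-2 + hsf-1 replicate 1 or 2 or hsf-1 replicate 2 or 3 (log2 change 0.84 to 1.35 over the 17 fits, limma, adjusted p up to 0.117) and with the 2 groups fitted alone. ttr-50 overlaps rbm-17 on the other strand. The log2 change of rbm-17 with ash-2 RNAi was 0.10, and it was called in no contrast.

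ttr-52, the bridging protein of corpse clearance described above, was one of the lowest members. The gene, on chromosome III at 13404718 to 13405783 (plus strand, 135 codons), had 0.676, 1.84, 0.222 and 1.25 FPKM in ash-2 + hsf-1 libraries, 2.99, 3.698, 2.63 and 2.66 in ash-2 libraries, 0.861, 0, 0 and 0.199 in hsf-1 libraries and 1.62, 0.536, 0.4303, 0.661 and 0.889 in L4440 libraries. It was highest in the 4 ash-2 libraries, which lay above all the others, and was listed at 0 in hsf-1 replicates 2 and 3. It reached an FPKM of 1 in the 4 ash-2 libraries and in 3 others, so it passed the level filter only through the group in which it is high, and had to differ there. Its log2 change with ash-2 RNAi was 1.45 ± 0.36 (SE; limma, adjusted p = 0.0076). The double RNAi was lower than ash-2 alone, with a log2 change of -1.35 ± 0.38 (SE; limma, adjusted p = 0.0210). That second call was lost without the 4 sparse libraries (log2 change -1.11, adjusted p = 0.113) and without ash-2 + hsf-1 replicate 1 or 3 or ash-2 replicate 1 or 2 (log2 change -1.61 to -1.04 over the 17 fits, limma, adjusted p up to 0.0568), with a pseudocount of 0.1 and with the 2 groups fitted alone. With hsf-1 RNAi its log2 change was -0.86 ± 0.36 (SE; limma, adjusted p = 0.155). At a median of 9.81 estimated fragments per library, the values of ttr-52 are coarse.

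Of 17 other genes of corpse recognition and engulfment, which include the receptor gene ced-1 and its adaptor ced-6, 1 rose with ash-2 RNAi and 0 fell. Beside this, 4.17% of all genes were called higher and 15.5% lower. The gene that rose was ced-2, which encodes a CrkII-like adaptor, with a log2 change of 0.35 ± 0.10 (SE; limma, adjusted p = 0.0196). The median log2 change of the 17 genes was -0.44, beside -0.32 for all genes. None was called in the other 5 contrasts, in which 0.107% to 15.8% of all genes were called.

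The members ttr-7, ttr-20 and ttr-46 were lower in both groups that received ash-2 RNAi. They fell with ash-2 RNAi and with the double RNAi against L4440, and with the double RNAi against hsf-1 alone. ttr-7, on chromosome III at 606004 to 606998 (plus strand), had 9.99, 11.7, 8.13 and 6.96 FPKM in ash-2 + hsf-1 libraries, 2.73, 7.75, 7.06 and 5.76 in ash-2 libraries, 33.7, 31.5, 21.5 and 11.9 in hsf-1 libraries and 31.4, 31.1, 24.9, 29.9 and 19.01 in L4440 libraries. All 8 libraries with ash-2 RNAi were below all 9 without it. Its log2 change was -2.19 ± 0.32 (SE; limma, adjusted p = 9.17e-05) with ash-2 RNAi, -1.52 ± 0.32 (SE; limma, adjusted p = 0.0055) in the double RNAi against L4440 and -1.29 ± 0.34 (SE; limma, adjusted p = 0.0213) in the double RNAi against hsf-1 alone. The first and second of these were called in all 29 alternative fits. The third was lost without ash-2 + hsf-1 replicate 3 or 4 or hsf-1 replicate 1, 2 or 3 (log2 change -1.60 to -1.11 over the 17 fits, limma, adjusted p up to 0.0819) and with the 2 groups fitted alone. On the other strand ttr-7 overlaps best-17, a bestrophin gene, which also fell with ash-2 RNAi (log2 change -1.21, limma, adjusted p = 0.00781). The library kit kept strand, but how strand was used in counting is not given in the sources used here, so the share of each gene in these values was not tested.

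The most abundant of the members that fell was ttr-46, on chromosome V at 9951233 to 9952178 (plus strand, 179 codons), with 95.2, 108, 93.5 and 62.7 FPKM in ash-2 + hsf-1 libraries, 79.8, 75.4, 75.2 and 82.1 in ash-2 libraries, 162, 168, 147 and 104 in hsf-1 libraries and 163, 167, 142, 157 and 160.1 in L4440 libraries. The ash-2 libraries were within a few FPKM of each other and all below the L4440 libraries. Its level fell with ash-2 RNAi with a log2 change of -1.01 ± 0.16 (SE; limma, adjusted p = 0.000145), in the double RNAi against L4440 with one of -0.84 ± 0.16 (SE; limma, adjusted p = 0.0021) and in the double RNAi against hsf-1 alone with one of -0.69 ± 0.16 (SE; limma, adjusted p = 0.0118). In the last comparison hsf-1 replicate 4 overlapped with the double RNAi, and the call was lost under median-of-ratios scaling and with the 2 groups fitted alone. ttr-20, on chromosome IV at 4246793 to 4247490 (plus strand), had 11.9, 11.99, 8.74 and 9.28 FPKM in ash-2 + hsf-1 libraries, 5.88, 9.599, 8.47 and 10.9 in ash-2 libraries, 38.1, 28.9, 25.3 and 13.3 in hsf-1 libraries and 24.5, 23.5, 19.9, 19.4 and 14.3 in L4440 libraries. All 8 libraries with ash-2 RNAi were below the others. The log2 change was -1.19 ± 0.27 (SE; limma, adjusted p = 0.0046) with ash-2 RNAi, -0.91 ± 0.27 (SE; limma, adjusted p = 0.0454) in the double RNAi against L4440 and -1.21 ± 0.29 (SE; limma, adjusted p = 0.0119) in the double RNAi against hsf-1 alone. The second of these was close to the threshold. It was lost in 13 of the 17 fits that left out 1 library, those without any ash-2 + hsf-1 library, ash-2 replicate 2, 3 or 4, hsf-1 replicate 2 or 3 or L4440 replicate 1, 2, 3 or 4 (log2 change -1.03 to -0.84 over the 17 fits, limma, adjusted p up to 0.128), with a pseudocount of 0.1 and with no filter on low values. The third was lost without hsf-1 replicate 1 (adjusted p = 0.0511) and with the 2 groups fitted alone.

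The next members fell with ash-2 RNAi and were not called in the double RNAi against L4440. ttr-59 and ttr-30 lie 279 bases apart on chromosome X, at 7329818 to 7330669 and 7330949 to 7331903, both on the plus strand. ttr-59 had 39.1, 40.99, 24.6 and 86.4 FPKM in ash-2 + hsf-1 libraries, 10.2, 25.8, 13.9 and 21.4 in ash-2 libraries, 80.6, 74.1, 63.6 and 61.4 in hsf-1 libraries and 66.1, 68.2, 47.9, 61.8 and 47.7 in L4440 libraries, and fell with ash-2 RNAi with a log2 change of -1.75 ± 0.30 (SE; limma, adjusted p = 0.000438). ttr-30 had 12.7, 22.1, 6.84 and 12.9 FPKM in ash-2 + hsf-1 libraries, 3.85, 8.02, 5.12 and 8.62 in ash-2 libraries, 29.3, 27.5, 29.5 and 10.8 in hsf-1 libraries and 27.7, 29.1, 18.01, 24.4 and 15.9 in L4440 libraries, and fell with a log2 change of -1.80 ± 0.36 (SE; limma, adjusted p = 0.0015). For both genes each ash-2 library was below each L4440 library, and the calls held in all 29 alternative fits. ttr-21, the member annotated to defense against Gram-negative bacteria, lies on chromosome V at 13853834 to 13854405 (minus strand). It had 10.7, 20.5, 10.33 and 21.3 FPKM in ash-2 + hsf-1 libraries, 3.27, 5.52, 3.48 and 7.76 in ash-2 libraries, 27.9, 33.7, 53.6 and 15.8 in hsf-1 libraries and 19.97, 22.5, 16.3, 20.6 and 9.89 in L4440 libraries, and fell with ash-2 RNAi with a log2 change of -1.76 ± 0.36 (SE; limma, adjusted p = 0.0020), in all 29 alternative fits too. Of its 4 hsf-1 libraries, 3 exceeded all L4440 libraries, but that contrast was not called (log2 change 0.78 ± 0.36 (SE; limma, adjusted p = 0.218)).

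ttr-33, the neuroprotective member, lies on chromosome V at 7837093 to 7837909 (minus strand). It had 14.3, 26.7, 12.7 and 15.4 FPKM in ash-2 + hsf-1 libraries, 5.89, 11.5, 6.11 and 11.4 in ash-2 libraries, 36.01, 36.2, 41.5 and 13.3 in hsf-1 libraries and 26.2, 30.5, 24.9, 28.2 and 15.01 in L4440 libraries. The 4 ash-2 libraries were all below the 5 L4440 libraries. ttr-33 fell with ash-2 RNAi with a log2 change of -1.49 ± 0.34 (SE; limma, adjusted p = 0.0045), and the call held in all 29 alternative fits. In the double RNAi its log2 change was -0.54 ± 0.34 (SE; limma, adjusted p = 0.496) against L4440 and 0.95 ± 0.36 (SE; limma, adjusted p = 0.0875) against ash-2 alone, neither of which passed. The gene overlaps mig-6, which encodes papilin, on the other strand, and txt-5 on its own strand. With ash-2 RNAi mig-6 had a log2 change of -0.15 and txt-5 one of -1.08 (limma, adjusted p = 0.0687).

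ttr-14, the long member, had the largest SE of the members in every contrast. It lies on chromosome X at 10787503 to 10789700 (plus strand) and had 6.59, 31.9, 0.8395 and 25.3 FPKM in ash-2 + hsf-1 libraries, 0.157, 1.73, 0.231 and 1.71 in ash-2 libraries, 21.5, 19.6, 23.3 and 4.703 in hsf-1 libraries and 8.87, 17.98, 6.82, 2.68 and 6.27 in L4440 libraries. Its ash-2 libraries were all below its L4440 libraries, but 1 of its ash-2 + hsf-1 libraries lay within the ash-2 range and 2 lay above all L4440 libraries. With ash-2 RNAi ttr-14 fell with a log2 change of -2.64 ± 0.80 (SE; limma, adjusted p = 0.0281). The call was lost without ash-2 replicate 1 or 3 or L4440 replicate 1 or 2 (log2 change -2.96 to -2.32 over the 17 fits, limma, adjusted p up to 0.0999) and with no filter on low values. With the number of detected genes as a covariate the log2 change was -0.66 (limma, adjusted p = 0.372). On the other strand ttr-14 overlaps vap-2, which fell with ash-2 RNAi (log2 change -0.92, limma, adjusted p = 0.0392) and was higher in the double RNAi than in ash-2 alone (log2 change 1.05, limma, adjusted p = 0.0299).

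Low in all groups was ttr-12, on chromosome V at 20607777 to 20608788 (minus strand), with 0.578, 0.918, 0.142 and 0.381 FPKM in ash-2 + hsf-1 libraries, 0.0655, 0.172, 0.126 and 0 in ash-2 libraries, 2.36, 3.56, 2.06 and 0.458 in hsf-1 libraries and 2.19, 1.85, 1.16, 1.64 and 0.792 in L4440 libraries. Each ash-2 library was below each L4440 library and 1 was listed at 0. The log2 change with ash-2 RNAi was -1.74 ± 0.35 (SE; limma, adjusted p = 0.0017), called in all 29 alternative fits. However, ttr-12 reached an FPKM of 1 in 4 L4440 and 3 hsf-1 libraries and in 0 libraries with ash-2 RNAi. So it passed the level filter only through the groups in which it is high, and had to differ there. ttr-27, at 12903550 to 12904098 on the minus strand of chromosome V, had 5.09, 8.64, 4.34 and 6.18 FPKM in ash-2 + hsf-1 libraries, 1.88, 5.11, 1.45 and 3.12 in ash-2 libraries, 12.3, 12.9, 14.3 and 7.58 in hsf-1 libraries and 7.65, 8.61, 5.72, 9.02 and 5.24 in L4440 libraries, and fell with ash-2 RNAi with a log2 change of -1.28 ± 0.31 (SE; limma, adjusted p = 0.0064). ttr-26, at 18558758 to 18560288 on the same strand and chromosome, had 19.4, 28.2, 13.8 and 17.2 FPKM in ash-2 + hsf-1 libraries, 3.28, 12.3, 4.81 and 10.7 in ash-2 libraries, 35.9, 48.3, 50.003 and 16.7 in hsf-1 libraries and 22.5, 22.3, 12.5, 17.7 and 13.2 in L4440 libraries, and fell with a log2 change of -1.26 ± 0.39 (SE; limma, adjusted p = 0.0287). For both genes the ash-2 libraries lay below the L4440 libraries, most deeply in replicates 1 and 3. Without the 4 sparse libraries the log2 change was -0.75 for ttr-27 (limma, adjusted p = 0.0715) and -0.55 for ttr-26 (limma, adjusted p = 0.202). The call of ttr-26 was also lost without ash-2 replicate 1 or 3 or L4440 replicate 1, 2 or 4 (log2 change -1.53 to -0.95 over the 17 fits, limma, adjusted p up to 0.126). The remaining calls were ttr-32, with 4.66, 25.4, 7.39 and 22.4 FPKM in ash-2 libraries and 47.6, 49.9, 29.1, 41.6 and 26.7 in L4440 libraries and a log2 change of -1.62 ± 0.49 (SE; limma, adjusted p = 0.0277), and ttr-17, with 10.6, 34.6, 14.9 and 37.7 FPKM in ash-2 libraries and 63.8, 59.9, 37.8, 57.8 and 34.6 in L4440 libraries and a log2 change of -1.19 ± 0.37 (SE; limma, adjusted p = 0.0322). In ttr-17 the groups overlapped. Both calls were lost without ash-2 replicate 1 or 3 or L4440 replicate 1, 2 or 4, for ttr-32 (log2 change -1.97 to -1.19 over the 17 fits, limma, adjusted p up to 0.125) and for ttr-17 (log2 change -1.46 to -0.86 over the 17 fits, limma, adjusted p up to 0.142), and without the 4 sparse libraries.

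**Figure D4:**
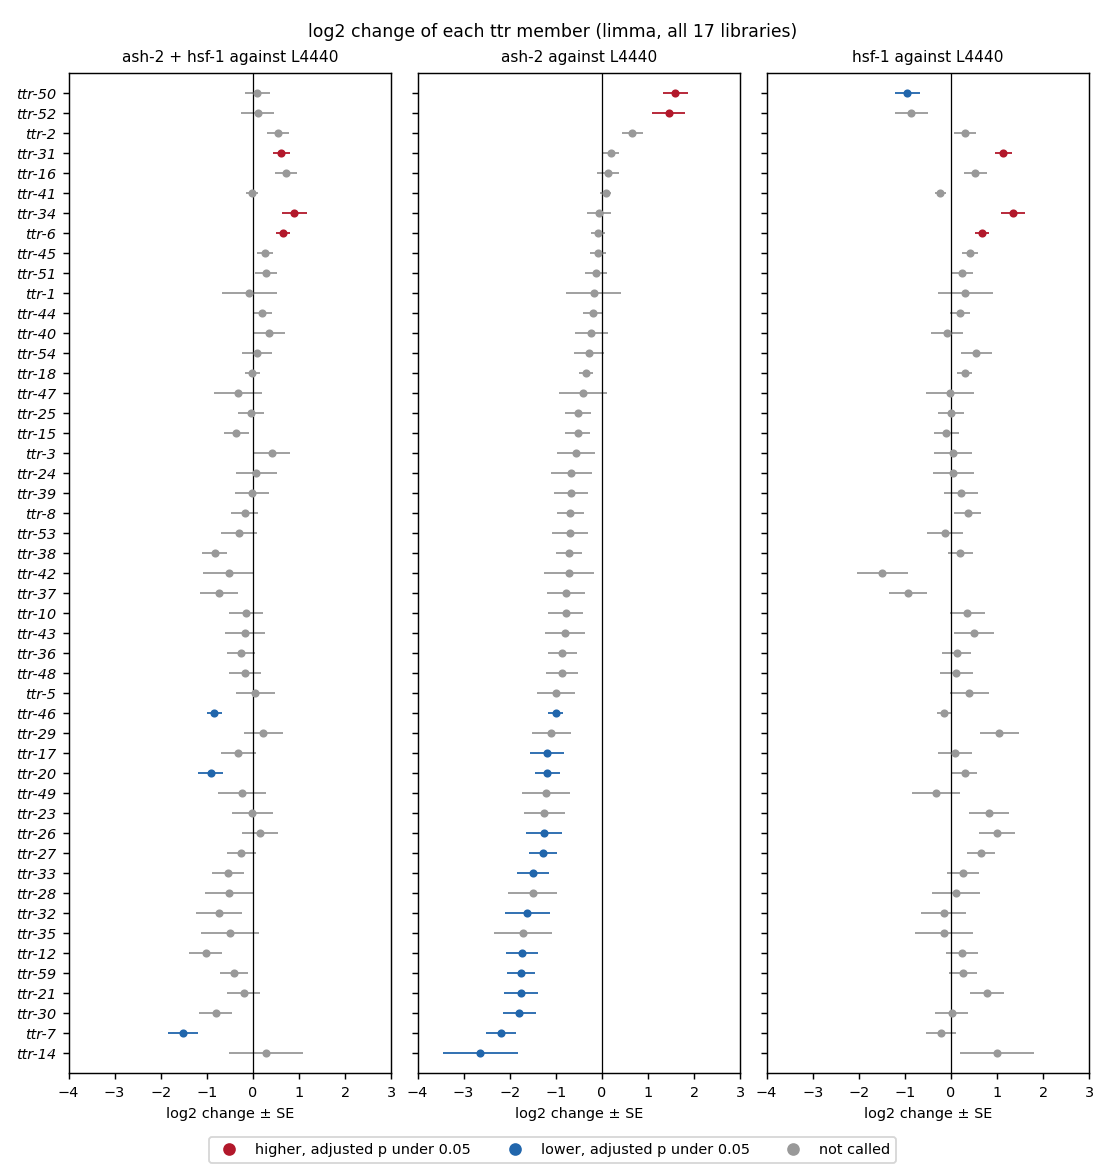
Log2 change ± SE of each member, from limma over all 17 libraries, in ash-2 + hsf-1, ash-2 and hsf-1 libraries against L4440. Red points rose and blue points fell at an adjusted p under 0.05, which holds for 3 and 3 members with the double RNAi, 2 and 13 with ash-2 RNAi and 3 and 1 with hsf-1 RNAi.

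With hsf-1 RNAi few members were called. Against L4440, 3 rose and 1 fell, 8.16% of the members, beside 10.6% of all genes (7.72% higher and 2.91% lower). The estimate was above 0 for 35 of the 49 members, and the median log2 change was 0.21, beside -0.03 for all genes. Without hsf-1 replicate 4 the count was 8, with 7 higher and 1 lower, beside 14.3% of all genes. Without all 4 sparse libraries it was 16, with 14 higher and 2 lower, beside 21.9% of all genes, and the 4 calls were among them. Those gained included ttr-20, ttr-21, ttr-26 and ttr-27, which fell with ash-2 RNAi, and ttr-42, which was lower with hsf-1 RNAi. Under quantile normalization the count was 10 (7 higher and 3 lower), beside 16.5% of all genes. In this contrast the 3 yolk protein markers fell, with a summed FPKM of 2647 to 3630 in hsf-1 libraries and 7589 to 8889 in L4440 libraries, and no marker was at 0. The part of that difference in the ttr values was not tested.

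The 3 members that rose with hsf-1 RNAi, ttr-34, ttr-31 and ttr-6, all lie on chromosome X and also rose in the double RNAi. Chromosome X holds 12 of the members, and the share of all its genes that rose was not counted. ttr-34, at 13139793 to 13140886 (plus strand), had 38.2, 50.04, 25.6 and 26.6 FPKM in ash-2 + hsf-1 libraries, 20.4, 19.4, 16.9 and 12.6 in ash-2 libraries, 67.8, 60.1, 40.2 and 28.1 in hsf-1 libraries and 24.3, 16.5, 15.5, 17.2 and 17.4 in L4440 libraries. Each library with hsf-1 RNAi exceeded each L4440 library, while the ash-2 libraries overlapped with L4440. ttr-34 rose with hsf-1 RNAi with a log2 change of 1.35 ± 0.27 (SE; limma, adjusted p = 0.0030) and in the double RNAi against L4440 with one of 0.90 ± 0.27 (SE; limma, adjusted p = 0.0445). The hsf-1 call held in all 29 alternative fits. The other was lost in 9 fits, those without ash-2 + hsf-1 replicate 1 or 2, ash-2 replicate 2 or 3, hsf-1 replicate 3 or L4440 replicate 2, 3, 4 or 5 (log2 change 0.71 to 1.03 over the 17 fits, limma, adjusted p up to 0.136), and with no filter on low values.

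ttr-31, at 11008268 to 11009054 (minus strand), had 29.1, 36.7, 34.3 and 31.4 FPKM in ash-2 + hsf-1 libraries, 30.9, 22.3, 29.2 and 17.2 in ash-2 libraries, 48.9, 49.8, 53.96 and 37.4 in hsf-1 libraries and 21.9, 21.8, 22.4, 21.4 and 18.6 in L4440 libraries. Here too each library with hsf-1 RNAi exceeded each L4440 library in both groups that received it. The log2 change was 1.13 ± 0.18 (SE; limma, adjusted p = 0.000345) with hsf-1 RNAi, called in all 29 alternative fits, and 0.62 ± 0.18 (SE; limma, adjusted p = 0.0360) in the double RNAi against L4440. The second was lost without ash-2 + hsf-1 replicate 2 or 3 or any 1 of the 5 L4440 libraries (log2 change 0.56 to 0.67 over the 17 fits, limma, adjusted p up to 0.0925) under median-of-ratios or quantile scaling and with a replicate block by title number. ttr-6, at 6596425 to 6597121 (minus strand), had 136, 156, 171 and 155 FPKM in ash-2 + hsf-1 libraries, 115.4, 80.8, 104 and 76.99 in ash-2 libraries, 167, 186, 159 and 123 in hsf-1 libraries and 106, 102, 109.8, 103 and 75.1 in L4440 libraries. The 8 libraries with hsf-1 RNAi were all above the 9 without it. The log2 change was 0.67 ± 0.15 (SE; limma, adjusted p = 0.0088) with hsf-1 RNAi and 0.64 ± 0.15 (SE; limma, adjusted p = 0.0126) in the double RNAi against L4440. Under median-of-ratios scaling the calls of ttr-6 were lost in every contrast.

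**Figure D5:**
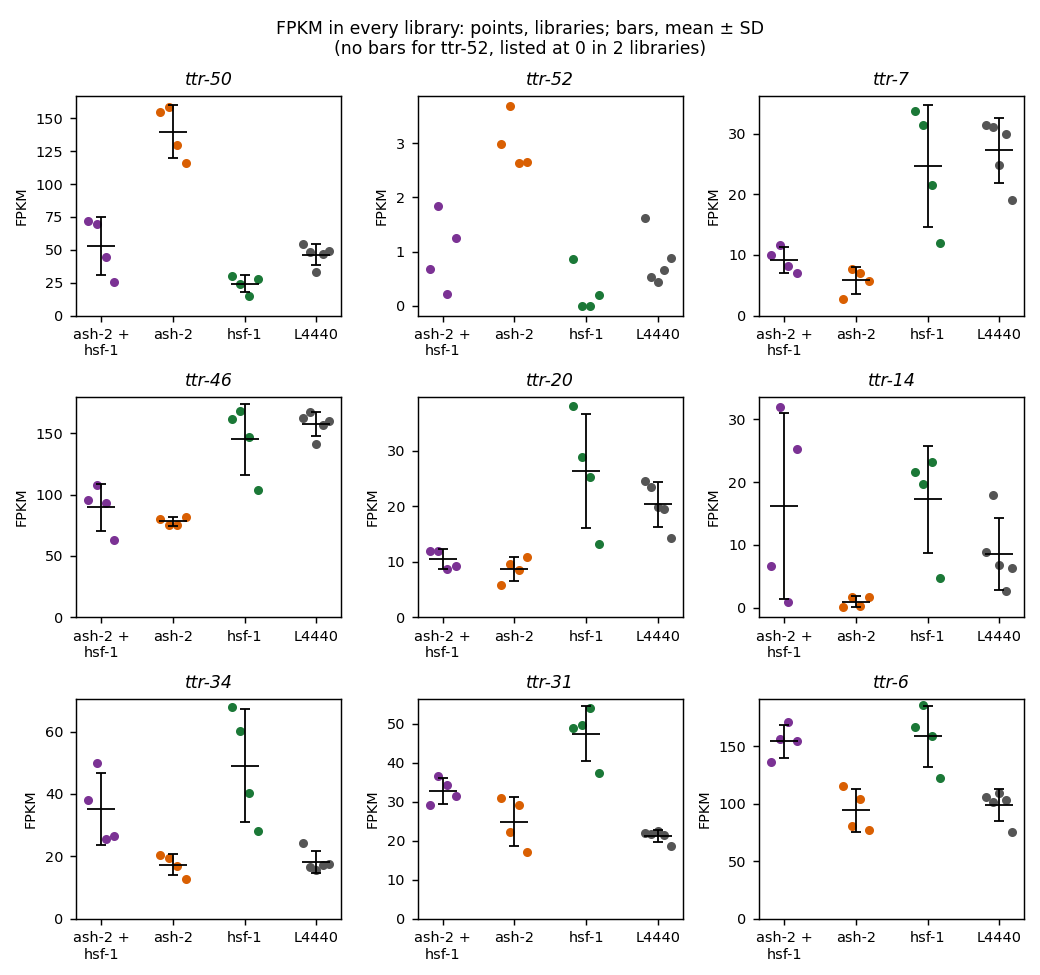
FPKM in every library for 9 members, by group, with points for libraries and bars for mean ± SD (none for ttr-52, which was listed at 0 in 2 libraries). ttr-50 and ttr-52 are highest in ash-2 libraries, ttr-7, ttr-46 and ttr-20 are low in both groups with ash-2 RNAi, ttr-14 varies widely in the double RNAi, and ttr-34, ttr-31 and ttr-6 are high in both groups with hsf-1 RNAi.

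With both clones, few members were called against L4440. Of the 49, 3 rose and 3 fell, 12.2%, beside 9.08% of all genes (3.68% higher and 5.4% lower), and the median log2 change was -0.15, beside -0.07 for all genes. The members called were those already described, ttr-34, ttr-6 and ttr-31 higher and ttr-7, ttr-20 and ttr-46 lower. The count was 3 (1 higher and 2 lower) without ash-2 + hsf-1 replicate 2 or without L4440 replicate 2, 3 or 4, when 6.61% to 8.38% of all genes were called. The split was 1 higher and 6 lower under median-of-ratios scaling, beside 11.3% of all genes called. It was 3 higher and 6 lower under quantile normalization, beside 13.7%. Summed FPKM of the epidermis markers ran from 549 to 2394 among the 4 ash-2 + hsf-1 libraries, a wider range than the 1321 to 1558 of the L4440 libraries, with no marker at 0.

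In the double RNAi against ash-2 alone the members were called about as often as all genes in the main fit, in the same split. With a replicate block by description number, 24 members were called (49.0%), beside 22.4% of all genes. In the main fit the double RNAi was higher for 7 members and lower for 2, 18.4%, beside 15.8% of all genes, with 12% of all genes higher and 3.76% lower. The median log2 change was 0.62, beside 0.27 for all genes, and the estimate was above 0 for 44 members. Median-of-ratios scaling moved the all-gene median by -0.23 and quantile normalization by -0.32, with 10 and 8 members higher and 2 lower in both. In these fits 21.3% and 17.4% of all genes were called. Higher than in ash-2 alone were 5 of the members that fell with ash-2 RNAi. In ttr-14 the difference was a log2 change of 2.93 ± 0.85 (SE; limma, adjusted p = 0.0259). In ttr-21 it was 1.55 ± 0.38 (SE; limma, adjusted p = 0.0098), called in all 29 alternative fits. In ttr-26 it was 1.41 ± 0.41 (SE; limma, adjusted p = 0.0257). In ttr-59 it was 1.34 ± 0.32 (SE; limma, adjusted p = 0.0082), and in ttr-27 1.03 ± 0.32 (SE; limma, adjusted p = 0.0390). In ttr-14, ttr-59 and ttr-27 the 2 groups overlapped. The other 2, ttr-34 (log2 change 0.97 ± 0.28 (SE; limma, adjusted p = 0.0261)) and ttr-6 (log2 change 0.72 ± 0.16 (SE; limma, adjusted p = 0.0053)), were not called with ash-2 RNAi. The 2 members lower than in ash-2 alone were ttr-50 and ttr-52, given above. This contrast and that of ash-2 against L4440 share the ash-2 libraries, so a high or low ash-2 library moves both contrasts in opposite directions. The mean ash-2 transcript was at 51.7% of its L4440 mean in the double RNAi and at 33.3% in ash-2 alone. The ranges overlapped, at 3.92 to 11.6 FPKM and 2.04 to 8.68 FPKM. The part of the ash-2 level in the ttr differences was not tested. Markers of other tissues moved in this contrast too. Of the 6 sperm markers 5 were higher in the double RNAi, with the summed FPKM given above. All 3 yolk markers were lower, with a summed FPKM of 1550.4 to 7053 in ash-2 + hsf-1 libraries and 9549 to 11981 in ash-2 libraries. Of the 5 molting markers 3 were lower, with a summed FPKM of 35.8 to 76.6 in ash-2 + hsf-1 libraries and 79.7 to 120.2 in ash-2 libraries. None of these markers was at 0, and their part in the ttr differences was not tested.

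Several of these calls rested on single libraries. Without ash-2 + hsf-1 replicate 1 or 2 or ash-2 replicate 1 or 3 the count was 5, beside 10.9% to 12.9% of all genes. With the 2 groups fitted alone it was 3, namely ttr-21, ttr-6 and ttr-50, beside 9.22%. The call of ttr-34 was also lost under median-of-ratios scaling. The call of ttr-14 was lost without ash-2 + hsf-1 replicate 2 or 4 or ash-2 replicate 1 or 3 (log2 change 2.33 to 3.87 over the 17 fits, limma, adjusted p up to 0.0920). That of ttr-26 was lost without ash-2 + hsf-1 replicate 1 or 2 or ash-2 replicate 1 or 3 (log2 change 1.09 to 1.68 over the 17 fits, limma, adjusted p up to 0.0962). That of ttr-34 was lost without ash-2 + hsf-1 replicate 1 or 2 or ash-2 replicate 3 or 4 (log2 change 0.78 to 1.10 over the 17 fits, limma, adjusted p up to 0.0930). That of ttr-27 was lost without ash-2 + hsf-1 replicate 1, 2 or 4, ash-2 replicate 1 or 3, hsf-1 replicate 1 or L4440 replicate 1 (log2 change 0.81 to 1.32 over the 17 fits, limma, adjusted p up to 0.140). Without the 4 sparse libraries the count was 10, beside 14.8% of all genes, of which 6 were among the 9, and ttr-52, ttr-27 and ttr-26 were no longer called.

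Adding ash-2 RNAi to hsf-1 RNAi lowered 5 members and raised 1, 12.2%, beside 9.71% of all genes (1.28% higher and 8.42% lower). The member that was higher than with hsf-1 alone was ttr-50, and ttr-7, ttr-20 and ttr-46 were lower, as given above. The other 2 were ttr-12, with a log2 change of -1.26 ± 0.37 (SE; limma, adjusted p = 0.0403), and ttr-38, with a log2 change of -1.04 ± 0.29 (SE; limma, adjusted p = 0.0328). For ttr-12 the limit of the level filter given above holds in this contrast too. ttr-38, on chromosome X at 9312515 to 9314497 (minus strand), had 2.18, 3.26, 1.81 and 2.42 FPKM in ash-2 + hsf-1 libraries, 2.19, 2.61, 2.88 and 2.87 in ash-2 libraries, 4.495, 8.41, 7.09 and 3.06 in hsf-1 libraries and 4.79, 6.99, 4.33, 4.92 and 2.86 in L4440 libraries. Its double RNAi libraries overlapped with hsf-1 replicate 4 and its log2 change with ash-2 RNAi was -0.71 ± 0.28 (SE; limma, adjusted p = 0.0858). The call of ttr-38 was lost without ash-2 + hsf-1 replicate 1, 3 or 4 or hsf-1 replicate 1, 2 or 3 (log2 change -1.28 to -0.84 over the 17 fits, limma, adjusted p up to 0.128). The call of ttr-12 was lost without ash-2 + hsf-1 replicate 1, 3 or 4, ash-2 replicate 3, hsf-1 replicate 1, 2 or 3 or L4440 replicate 3 or 4 (log2 change -1.68 to -0.99 over the 17 fits, limma, adjusted p up to 0.150), with a pseudocount of 0.1 and with no filter on low values. The count moved with the libraries used, and the share of all genes moved with it. It was 15 without hsf-1 replicate 4, beside 16.5% of all genes. It was 3 without ash-2 + hsf-1 replicate 1 (7.56%) or hsf-1 replicate 1 (6.7%), and 2 without hsf-1 replicate 2 (6.72%) or 3 (6.05%). With the 2 groups fitted alone it was 0, beside 3.19%. Without the 4 sparse libraries it was 16 (2 higher and 14 lower), which included all 6, beside 17.3%.

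Whether ash-2 RNAi acted differently in the presence of hsf-1 RNAi was tested as an interaction. The mean ash-2 transcript was at 51.7% of its L4440 mean in the double RNAi and at 33.3% in ash-2 alone. The interaction does not separate such a difference in lowering of ash-2 from the presence of hsf-1 RNAi. With limma, 0 of 49 members were called, beside 0.107% of all genes (0.0153% higher and 0.0917% lower), and 2 had an unadjusted p under 0.05. The median interaction was 0.41 for the members and 0.23 for all genes, and 39 members were above 0. For ttr-14 it was 1.94 ± 1.17 (SE; limma, adjusted p = 0.698), and for ttr-50 -0.54 ± 0.40 (SE; limma, adjusted p = 0.698). So an ash-2 change called without hsf-1 RNAi and not in its presence is not shown to differ by this test. How the double RNAi differs from ash-2 alone is a separate contrast, given above, with 9 members called.

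Neighbours in the same cluster had changes of the same or of different sign. Of 13 neighbour pairs with both genes tested, 10 (76.9%) had the same sign with ash-2 RNAi, beside 78.1% of all 1176 pairs of members, and 10 with hsf-1 RNAi, beside 58.3%. Their mean levels differed by between 1.02 and 422 times. In ttr-27, ttr-28 and ttr-29, a run on chromosome V, the log2 changes with ash-2 RNAi were -1.28, -1.50 and -1.10, of which only the first was called. In ttr-24, ttr-25 and ttr-26 they were -0.67, -0.51 and -1.26, and only the last was called. In the pair ttr-8 and ttr-32 they were -0.69 and -1.62, and only ttr-32 was called. The pair ttr-16 and ttr-17 on chromosome IV had log2 changes of 0.13 and -1.19, of which the second was called, and ttr-16 lies among the most abundant members. In ttr-3, ttr-2 and ttr-1 on chromosome III they were -0.57, 0.66 and -0.18, and none was called. Differences between neighbours were not tested. By chromosome, the 13 members that fell with ash-2 RNAi were 6 of 17 on V, 3 of 12 on X, 2 of 9 on III, 2 of 9 on IV and 0 of 2 on II. The share of all genes called on each chromosome was not counted, so no pattern by chromosome can be read from these counts.

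The other 30 members were called in no contrast. Some of them varied widely between libraries. ttr-35 had 1.298, 8.06, 1.42 and 9.36 FPKM in ash-2 libraries and 15.4, 20.1, 9.68, 11.3 and 10.997 in L4440 libraries, with no overlap, and a log2 change of -1.71 ± 0.63 (SE; limma, adjusted p = 0.0685). ttr-28 had 0.762, 3.95, 1.03 and 3.07 FPKM in ash-2 libraries and 8.57, 7.75, 4.71, 6.54 and 4.24 in L4440 libraries, and a log2 change of -1.50 ± 0.53 (SE; limma, adjusted p = 0.0571). ttr-42 had 4.12, 3.303, 0.956 and 1.33 FPKM in hsf-1 libraries and 8.497, 7.43, 5.702, 8.82 and 4.63 in L4440 libraries. Its groups did not overlap, and its log2 change with hsf-1 RNAi was -1.49 ± 0.55 (SE; limma, adjusted p = 0.105). ttr-41 was the steadiest of them, with 90.7, 87.6, 104 and 104 FPKM in ash-2 + hsf-1 libraries, 125.9, 91.3, 112 and 87.6 in ash-2 libraries, 78.2, 93.1, 89.9 and 72.6 in hsf-1 libraries and 97.04, 99.0, 103, 99.0 and 90.4 in L4440 libraries. Its coefficient of variation within L4440 libraries was 4.67%, the lowest of any member there, and its log2 change against L4440 was 0.08 with ash-2 RNAi and -0.23 with hsf-1 RNAi. Across the members, the median coefficient of variation was 41.0% in ash-2 + hsf-1 libraries, 39.9% in ash-2 libraries, 39.6% in hsf-1 libraries and 23.9% in L4440 libraries.

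The worm also has genes that are related to transthyretin by sequence but belong to the enzyme branch of that family. R09H10.3, described in the table as a probable 5-hydroxyisourate hydrolase, an enzyme of urate breakdown, fell with hsf-1 RNAi with a log2 change of -0.56 ± 0.17 (SE; limma, adjusted p = 0.0429) and in the double RNAi with one of -0.67 ± 0.17 (SE; limma, adjusted p = 0.0166), while its log2 change with ash-2 RNAi was 0.02 ± 0.17 (SE; limma, adjusted p = 0.953). A second such gene, ZK697.8, was listed at 0 in all libraries.

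The deposited tables hold the authors' own calls for 3 of the comparisons. The share of all genes that the authors marked was not counted, so what follows only compares calls for the members. In all 171 ttr rows of the authors' deposited tables a gene was marked where its q-value was under 0.05 and its log2 fold change beyond 1 in size, while calls here use the adjusted p alone. In the authors' deposited table of ash-2 against L4440, 2 members were marked higher and 18 lower. All 15 members called here were among these 20, and the others were ttr-49, ttr-35, ttr-29, ttr-28 and ttr-23. In the authors' deposited table of the double RNAi against ash-2, 6 members were marked higher and 2 lower, of which 6 were called here. In the authors' deposited table of hsf-1 against L4440, 4 were marked higher and 2 lower, of which ttr-34 and ttr-31 were called here. The authors' deposited table of that comparison did not mark ttr-6, at a q-value of 0.0031 and a log2 fold change of 0.68, or ttr-50, at a q-value of 0.0542 and a log2 fold change of -0.93. By the q-value alone, 25, 9 and 9 members passed in the authors' deposited tables of the 3 comparisons, in the order given.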

How the data were processed

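RNA of whole day 1 adults was sequenced in 17 libraries from a TruSeq stranded mRNA preparation, per the labels. Per the submitters' processing notes, the reads went through StringTie, HISAT2, cutadapt and DESeq2 (named in no order) on genome build WBcel235. The sources used here give neither their versions nor the column each tool made. FPKM values per gene and library were made and deposited by the authors. The authors also deposited 3 comparison tables with a fold change (a ratio), a log2 fold change, a p-value and a q-value, used only for the comparison of calls. Groups were taken from the labels.

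The test covered 13084 of 26786 genes, those reaching an FPKM of 1 in 4 or more libraries. The scale was log2(FPKM + 0.5), on which low genes appear to change less than they do. One model over all 17 libraries and 4 groups was fitted with limma 3.58.1 in R 4.3.3 (lmFit and eBayes, trend and robust both on), with 6 contrasts, Benjamini-Hochberg adjustment per contrast and calls at an adjusted p under 0.05. The procedure was tested on simulated data for ash-2 against L4440. Of 100 genes changed by a log2 of 1, 48 were called, and of 100 changed by a log2 of 2, 83 were called. Of all 139 calls, 8 were false. A gene that is not called can therefore still have changed. The interaction is the ash-2 effect in the presence of hsf-1 RNAi minus the ash-2 effect without it. Other steps used pandas 2.3.3 and scipy 1.17.1 in Python 3.11.15. Coordinates, strand, exons and codons come from the Ensembl release 115 annotation of WBcel235. The RefSeq gene table of the same build, to which 26780 genes matched by gene ID, was used to check the intervals. For all 57 ttr genes the 2 sources gave overlapping intervals.

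Members, lists and tests were chosen with earlier results of these data known. The genes given in full are, per contrast, up to 5 called members with the highest and 5 with the lowest log2 change, the 5 with the highest mean FPKM, ttr-52 and ttr-33. Other members named were chosen after their values were seen. The alternatives comprised 29 other fits, of which 17 left out 1 library each. Fragment counts were not used here, and near-identical genes can share reads. Depth was estimated from genes with 1 transcript, by the most common FPKM times length in kilobases between 0.04 and 0.08. This window was set beforehand and bounds the estimate, and the estimated fragments rest on it. The p-values measure the spread between these libraries. Marker lists are of body wall muscle, pharynx, intestine, epidermis, neurons, glia, coelomocytes, germline, sperm, oocytes and eggshell, embryo, larval molting and adult yolk.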

Additional observations from a re-analysis of the deposited data

Results flagged for a closer look

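Each gene given in full was looked at in each group for 1 library that stood apart from the others of its group by Dixon's criterion at the 95% level. Of 88 groups of values over 22 genes, 6 had such a library, and chance alone flags about 1 in 20. ttr-30 had 10.8 FPKM in hsf-1 replicate 4, and 27.5 to 29.5 FPKM in the other hsf-1 libraries. ttr-18 had 234.6 FPKM in hsf-1 replicate 3, and 276 to 279.6 FPKM in the others. ttr-2 had 281.6 FPKM in ash-2 + hsf-1 replicate 3, and 471 to 489.7 FPKM in the others. The other 3 were L4440 libraries. ttr-34 had 24.3 FPKM in replicate 1, against 15.5 to 17.4 FPKM in the other L4440 libraries. ttr-31 had 18.6 FPKM in replicate 5, against 21.4 to 22.4 FPKM. ttr-6 had 75.1 FPKM in the same replicate, against 102 to 109.8 FPKM. hsf-1 replicate 4 and ash-2 + hsf-1 replicate 3 are also among the 4 libraries with few detected genes.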

How the results depend on the processing

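Over the 49 members, 8111 results of alternative fits kept their side of the threshold, 150 no longer passed it, 209 newly passed it and 1 reversed. That was ttr-37, whose log2 change in the double RNAi against ash-2 was 0.05 (adjusted p = 0.954) and became -0.78 (limma, adjusted p = 0.0448) with the number of detected genes as a covariate. The count of called members is given with the share of all genes called in the same fit. It was 15 with ash-2 RNAi against L4440 (19.6% of all genes), and became 23 when the 2 groups were fitted alone (28.5%). With hsf-1 RNAi it was 4 (10.6%), and became 10 under quantile normalization (16.5%), 16 without the 4 sparse libraries (21.9%) and 11 with the number of detected genes as a covariate (39.6%, beside 22.4% of the members). For the double RNAi against L4440 it was 6 (9.08%), and became 10 with that covariate (18.7%). For the double RNAi against ash-2 it was 9 (15.8%), and became 3 with the 2 groups alone (9.22%). For the double RNAi against hsf-1 it was 6 (9.71%), and became 10 under median-of-ratios scaling (11.4%), 13 under quantile normalization (14%), 0 with the 2 groups alone (3.19%), 16 without the 4 libraries (17.3%) and 11 with the covariate (35.4%). The cause was not tested. Leaving out 1 library gave 11 to 23 calls with ash-2 RNAi (13.9% to 24.5% of all genes over these fits). It gave 3 to 8 with hsf-1 RNAi (6.46% to 14.3%) and 3 to 8 for the double RNAi against L4440 (6.52% to 11.7%). For the double RNAi it gave 5 to 13 against ash-2 (10.9% to 20.5%) and 2 to 15 against hsf-1 (6.05% to 16.5%). The interaction had 0 calls in each of them (0.0306% to 0.0764%). In the limma fit the target ash-2 in the double RNAi changed by -1.01 (adjusted p = 0.203). Replicate numbers were not taken to pair the libraries, since not every same-numbered pair correlated above 0.1. The correlations of same-numbered libraries ran from -0.69 to 0.69 (median 0.23) by title number and from -0.50 to 0.69 (median 0.36) by description number, beside medians of -0.08 and -0.09 for differently numbered libraries, and 9 and 10 of 17 libraries correlated best with their own number, which is a hint from the data that libraries of a number share something. A replicate block by title number gave 20, 4, 7, 10 and 6 calls in the 5 contrasts named above and 0 for the interaction. The shares of all genes called were then 20.0%, 8.19%, 8.39%, 15.7%, 9.95% and 0.0535%. A block by description number gave 29 with ash-2 RNAi (59.2% of the members, beside 31.4% of all genes). It gave 24 for the double RNAi against ash-2 (49.0%, beside 22.4%). In the other contrasts it gave 6 with hsf-1 RNAi (12.9% of all genes), 8 for the double RNAi against L4440 (10.6%) and 7 against hsf-1 (13.2%). The main fit has no block, so it leaves out whatever libraries of a number share. Low members are limited by depth, since ttr-52, ttr-12 and ttr-3 rest on a median of 9.81, 11.6 and 9.26 estimated fragments per library.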
